A study of Mus musculus with 10 samples.

Results

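The acute-phase genes of fat are genes for plasma proteins of the inflammatory response followed here in the epididymal fat pad, a visceral white fat depot beside the testis. The genes named were Orm1, Orm2, Orm3, Saa1, Saa2, Saa3, Hp, Lcn2, Cp and Serpina3n. They were represented by every probe set of the array that the annotation pairs with 1 of these symbols alone, and the genes were selected on their known roles with earlier results of these data in view. For genes with several probe sets, the leading one was chosen by its mean signal over the 10 arrays (the highest leads). This gave 11 probe sets for 9 of the 10 genes, out of 45141 probe sets and 17097 genes. No probe set was paired with Orm1 alone in the annotation used, so Orm1 is not analysed here.

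The tissue came from male mice on a C57/Bl6 background, aged 8 to 12 weeks at the start, that had eaten a diet with 45 energy% of fat for 16 weeks. The groups were ASC-/- mice (n = 3), which lack the inflammasome adaptor encoded by Pycard, Casp1-/- mice (n = 3), which lack the inflammasome protease caspase-1, and wild-type (WT) mice (n = 4). All 3 groups ate the same diet, no lean group is analysed here, and the labels do not say whether the WT mice were littermates of the null mice. The array was read once per mouse, and all values below are log2 signals, so that a difference of 1 is a doubling of the signal. The levels of different genes are not compared, because each probe set has its own scale.

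The acute-phase response is the change in secreted proteins that follows infection or tissue injury, and it is best known from the liver. Interleukin-6 and its relatives act through STAT3, and interleukin-1 and tumour necrosis factor act through NF-kappaB, with C/EBP factors acting at many of the same genes. Adipose tissue also transcribes many of these genes, and in mice Saa3, Hp, Lcn2 and the orosomucoids are known products of adipocytes, of fat macrophages or of both. Caspase-1, brought together with ASC, releases active interleukin-1beta, a known inducer of this response.

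The deleted genes followed their labels. Pycard was 3.40 ± 0.27 in ASC-/- fat, 8.59 ± 0.19 in Casp1-/- fat and 9.82 ± 0.62 in WT fat (SD, n = 3, 3 and 4). Casp1 was 9.36 ± 0.10, 4.85 ± 0.14 and 9.32 ± 0.55 in the same order of groups. Casp4, which encodes the related inflammatory caspase-11, was 8.16 ± 0.04, 6.45 ± 0.18 and 8.02 ± 0.30. It was lower in Casp1-/- than in WT (difference -1.58, limma, adjusted p = 0.00417). With the array sets described next as a block the difference was -1.20 (limma, adjusted p = 0.0258). That call held in 10 of 12 other settings, and was lost with a replicate block and within 1 array set. ASC-/- minus Casp1-/- was 1.72 (limma, adjusted p = 0.00346) and 1.21 with the array sets as a block (limma, adjusted p = 0.0710). Background was read from 23 nonspecific control probe sets, with array medians of 2.91 to 3.15 and a highest single value of 5.01, below which a level is called background here. Poly-A spike-in controls, which are added before labelling, divided the arrays into a high set of the 3 Casp1-/- arrays and WT replicate 1 (7.51 to 8.07) and a low set of the remaining arrays (5.76 to 6.50). The labels name no batch. Within the high set Casp1-/- can be set only against WT replicate 1, and within the low set ASC-/- against WT replicates 2 to 4. With the sets as a block, Casp1-/- minus WT is the same comparison, the Casp1-/- mean minus WT replicate 1. The blocked ASC-/- minus Casp1-/- takes the shift between the sets from WT replicate 1 against the other WT arrays. Macrophage markers averaged 10.50 to 10.95 on ASC-/- arrays, 9.01 to 9.34 on Casp1-/- arrays and 9.92 to 11.27 on WT arrays, and adipocyte markers 10.86 to 11.17, 11.53 to 11.56 and 10.39 to 11.35.

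Upstream sequence was available for 8 of the 10 genes, in 9 windows that run from 250 bases before to 50 bases after the start of the gene (RefSeq, GRCm38.p6), with none for Orm1 or Hp. The windows of Orm3, the gene past the threshold, of its neighbour Orm2, and of Saa3 and Saa1, which lay above and at background in this tissue, are shown on the strand of the gene. Capitals mark the letters TTGCNNAA on either strand, searched as the C/EBP motif.
Orm3: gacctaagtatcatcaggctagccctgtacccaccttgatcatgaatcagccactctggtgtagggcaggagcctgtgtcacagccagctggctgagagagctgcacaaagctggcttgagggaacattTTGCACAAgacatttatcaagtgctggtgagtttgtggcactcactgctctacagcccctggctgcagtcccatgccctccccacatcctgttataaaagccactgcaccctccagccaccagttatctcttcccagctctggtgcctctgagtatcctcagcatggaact
Orm2: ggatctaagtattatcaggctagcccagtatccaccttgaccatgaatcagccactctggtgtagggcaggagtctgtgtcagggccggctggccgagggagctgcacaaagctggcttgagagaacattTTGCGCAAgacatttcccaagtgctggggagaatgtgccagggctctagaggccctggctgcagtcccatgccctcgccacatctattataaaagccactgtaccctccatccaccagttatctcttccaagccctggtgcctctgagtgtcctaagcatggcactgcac
Saa3: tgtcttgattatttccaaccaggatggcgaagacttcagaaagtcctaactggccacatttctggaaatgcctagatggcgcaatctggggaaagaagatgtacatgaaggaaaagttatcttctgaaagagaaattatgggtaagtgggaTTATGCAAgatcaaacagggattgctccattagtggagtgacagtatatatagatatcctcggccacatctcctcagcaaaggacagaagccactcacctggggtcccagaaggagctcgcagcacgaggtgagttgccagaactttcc
Saa1: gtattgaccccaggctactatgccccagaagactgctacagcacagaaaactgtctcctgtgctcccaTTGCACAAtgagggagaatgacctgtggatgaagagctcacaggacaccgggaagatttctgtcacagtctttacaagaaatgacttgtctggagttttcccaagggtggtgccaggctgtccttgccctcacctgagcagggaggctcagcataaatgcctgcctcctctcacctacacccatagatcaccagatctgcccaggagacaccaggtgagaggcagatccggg
The Orm3 window is chr4:63355908-63356207 on the plus strand and the Orm2 window chr4:63362199-63362498 on the plus strand. The Saa3 window is chr7:46715627-46715926 on the minus strand and the Saa1 window chr7:46742931-46743230 on the minus strand.

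Orm3 and Orm2 lie side by side on chromosome 4, next to Orm1, and their windows had the same base at 263 of 295 aligned positions (89.2%). The capitals begin at position -121 from the start in Orm3 and -120 in Orm2, and they read TTGCACAA in Orm3 and TTGCGCAA in Orm2. The Saa1 and Saa2 windows had the same base at 287 of 299 aligned positions (96.0%), and both hold TTGCACAA. Saa3 reads TTATGCAA, the motif on the other strand, beginning at position -99. Lcn2 and 1 of the 2 Cp windows also held the C/EBP letters, and Serpina3n did not. The letters TTGCNNAA were present in 10.8% of all 32851 windows. The STAT3 letters TTCNNNGAA (8.30% of all windows) and the NF-kappaB motif (4.51%) were in none of the 9 windows. A match describes letters in a window of this length and does not show that a factor binds there.

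**Figure D1:**
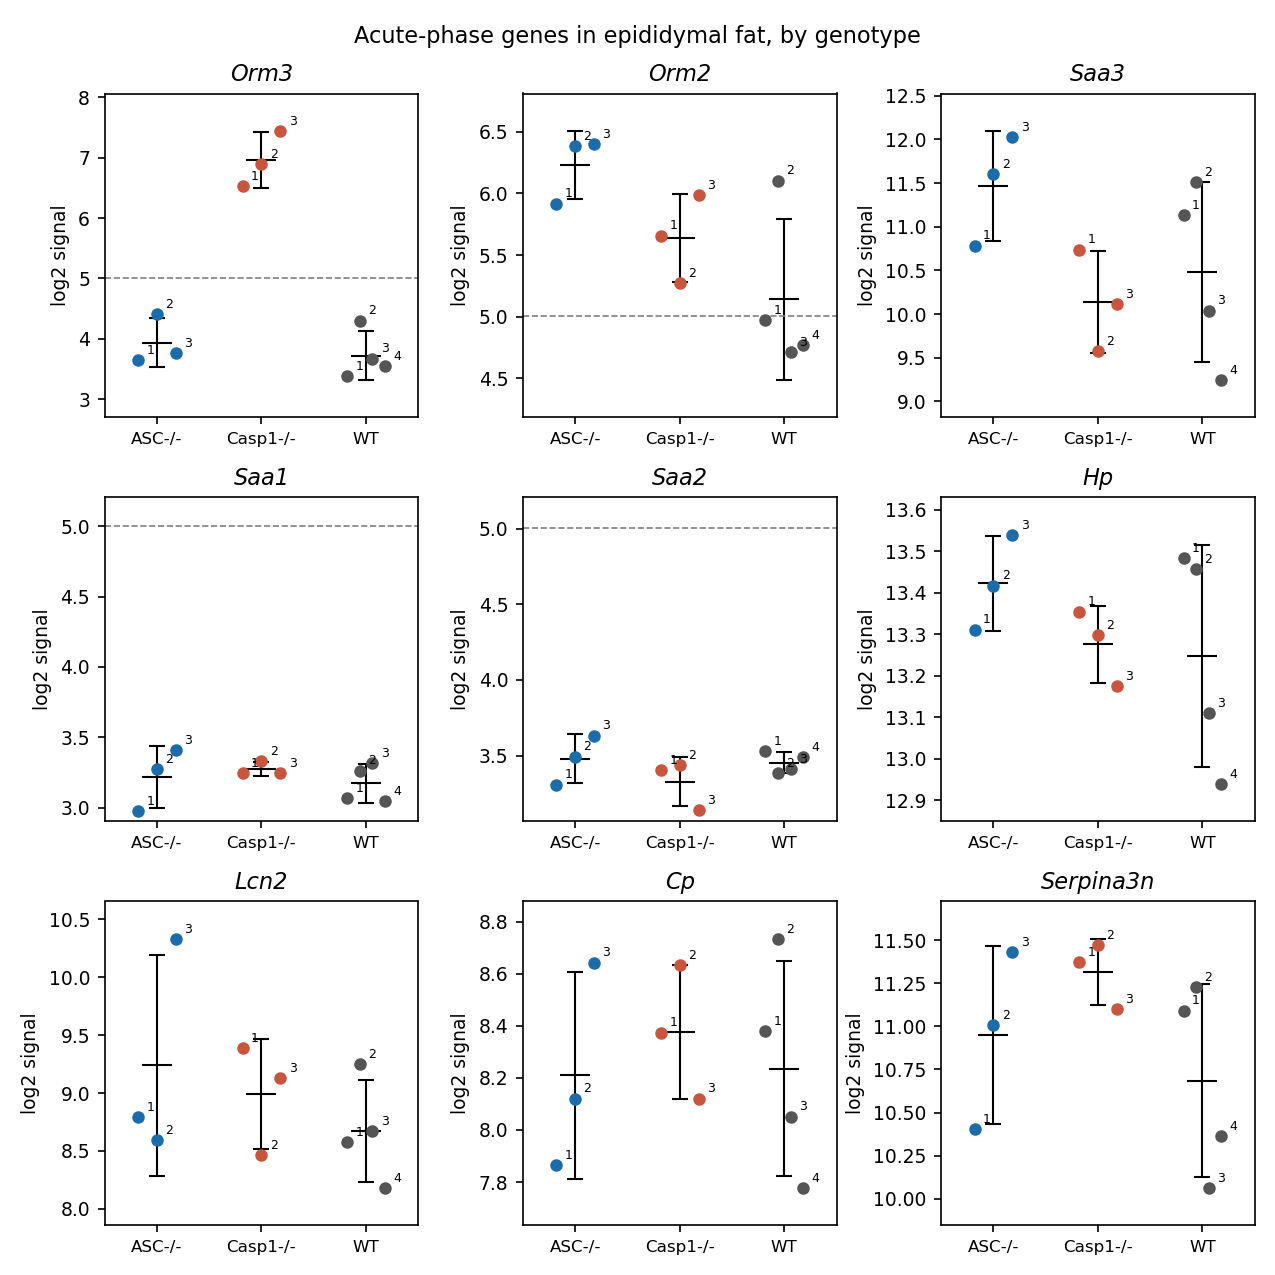
Log2 signal of the 9 measured acute-phase genes on each array, by genotype. Points are single arrays with their replicate numbers, the bar and whiskers are the mean and SD, the dashed line is the highest single background value (5.01), and the vertical scale differs between panels and does not start at 0. All 3 Casp1-/- arrays lie above every other array for Orm3, and Saa1 and Saa2 lie below the dashed line throughout.

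Orm3 was the acute-phase gene that separated the genotypes. It encodes an orosomucoid, an alpha-1 acid glycoprotein of plasma that binds small lipophilic molecules. It was 3.64, 4.40 and 3.77 on the ASC-/- arrays, 6.53, 6.90 and 7.44 on the Casp1-/- arrays, and 3.38, 4.30, 3.67 and 3.55 on the WT arrays. The lowest Casp1-/- array was 2.13 above the highest array of the other genotypes, and all ASC-/- and WT arrays lay within background. The transcript was thus measured above background in Casp1-/- fat only.

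The fitted difference for Orm3 was 3.23 ± 0.28 (SE, limma, 95% interval 2.60 to 3.87) in Casp1-/- over WT, with an adjusted p of 0.00339 over all genes. Because WT lay at background, the size is given as a bound: the Casp1-/- mean of 6.96 was 1.95 above the highest background value, so Orm3 was at least 3.87-fold higher in Casp1-/- fat. Between the null genotypes Orm3 was lower in ASC-/- by 3.02 ± 0.30 (SE, limma, adjusted p = 0.00346). ASC-/- minus WT was 0.21 (95% interval -0.42 to 0.85, limma, adjusted p = 1.00), both groups being at background.

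The Orm3 difference between Casp1-/- and WT stayed past the threshold without any 1 of the 10 arrays (2.99 to 3.45) and under all 12 other settings (3.18 to 3.58). With the spike-in set as a block it was 3.58 (limma, adjusted p = 0.0120). That value is the Casp1-/- mean minus WT replicate 1, the only WT array of the high set. The fit within the high set makes the same comparison, with the same 3.58, and is not a separate check. The lone WT array is assumed in both fits to vary like the others. ASC-/- minus Casp1-/- was -3.48 with the block (limma, adjusted p = 0.0393), and this value rests on WT replicate 1 too.

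Orm2, the neighbouring orosomucoid, had another pattern. It was 5.92, 6.38 and 6.40 on the ASC-/- arrays, 5.66, 5.27 and 5.99 on the Casp1-/- arrays, and 4.97, 6.10, 4.71 and 4.77 on the WT arrays. Every array of both null genotypes lay above background, against 1 of 4 WT arrays, replicate 2, which overlapped with both null groups. ASC-/- minus WT was 1.09 (95% interval 0.36 to 1.83, limma, adjusted p = 1.00), with 3 of the 4 WT arrays at background. Casp1-/- minus WT was 0.50 (95% interval -0.24 to 1.24, limma, adjusted p = 0.361), and ASC-/- minus Casp1-/- was 0.60 (95% interval -0.19 to 1.38, limma, adjusted p = 0.316).

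Casp1-/- minus WT for Orm2 was past the threshold only when WT replicate 2, its highest WT array, was left out. That was 1 of the 10 fits without 1 array, and none of the 12 other settings passed. Without WT replicate 2 Casp1-/- minus WT was 0.82 (limma, adjusted p = 0.0445), past the threshold, and ASC-/- minus WT was 1.42 (limma, adjusted p = 0.199), not past it. The adjustment is made within each contrast, and with all arrays 0.0351% of all genes passed in ASC-/- minus WT against 8.17% in Casp1-/- minus WT. With all arrays the unadjusted p by limma for Orm2 was 0.00824 in ASC-/- minus WT and 0.162 in Casp1-/- minus WT. WT replicate 2 also had the highest mean of 14 hepatocyte markers, at 4.99, against 4.06 to 4.39 on ASC-/- arrays, 4.20 to 4.45 on Casp1-/- arrays and 3.86 to 4.59 on the other WT arrays. The mean includes Cyp2e1, at 11.63 on WT replicate 2 and 8.88 to 13.08 over all arrays. Albumin was 6.79 on WT replicate 2 and 6.44 on WT replicate 4, where Orm2 was 4.77. Of the 14 markers 9 were below background on every array. Their part in the Orm2 values was not tested. How far each orosomucoid probe set also reads its relatives, Orm1 included, was not tested.

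Saa3 encodes the serum amyloid A that mice make mainly outside the liver, in fat and in macrophages. It was 10.78, 11.60 and 12.02 on the ASC-/- arrays, 10.74, 9.57 and 10.11 on the Casp1-/- arrays, and 11.13, 11.51, 10.04 and 9.25 on the WT arrays. The ASC-/- and Casp1-/- arrays did not overlap. The WT arrays covered the whole range of the Casp1-/- arrays, and ASC-/- replicates 2 and 3 lay above every WT array. Of all genes, 98.4% had a smaller SD within genotypes than Saa3 (0.82).

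ASC-/- minus Casp1-/- was 1.33 for Saa3 (95% interval 0.028 to 2.63, limma, adjusted p = 0.184), not past the threshold. With a covariate for the 3' minus 5' actin signal it was 2.32 (limma, adjusted p = 0.0370), past it. That actin measure, which rises as RNA shortens, was 0.54 to 0.67 on ASC-/- arrays, 0.82 to 0.98 on Casp1-/- arrays and 0.46 to 1.05 on WT arrays. ASC-/- minus WT was 0.99 (95% interval -0.23 to 2.20, limma, adjusted p = 1.00) and Casp1-/- minus WT was -0.34 (95% interval -1.56 to 0.87, limma, adjusted p = 0.732). In whole tissue, fewer cells of a type and less RNA per cell cannot be told apart.

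Saa1 and Saa2, the serum amyloids that the mouse liver secretes in the acute phase, stayed at background on all 10 arrays. Saa1 was 2.97 to 3.41 on ASC-/- arrays, 3.24 to 3.33 on Casp1-/- arrays and 3.04 to 3.31 on WT arrays. Saa2 was 3.31 to 3.63, 3.14 to 3.44 and 3.38 to 3.53 on the arrays of the same groups, and its second probe set averaged 3.28, 3.39 and 3.39. Both Saa2 probe sets carry the suffix that the manufacturer gives to probes shared with related transcripts. The 3 genes lie on chromosome 7 with Saa4 between Saa3 and Saa1, and 825 to 828 protein-coding genes from Pycard, the gene deleted in ASC-/- mice. Saa4 was also at background, at 3.24 ± 0.13, 3.17 ± 0.11 and 3.29 ± 0.08 in ASC-/-, Casp1-/- and WT fat (SD, n = 3, 3 and 4).

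Hp encodes haptoglobin, which binds free haemoglobin. It was 13.31, 13.42 and 13.54 on the ASC-/- arrays, 13.36, 13.30 and 13.17 on the Casp1-/- arrays, and 13.48, 13.46, 13.11 and 12.94 on the WT arrays. All 3 groups overlapped, and the genotype means were 13.42 ± 0.11, 13.28 ± 0.09 and 13.25 ± 0.27 (SD, n = 3, 3 and 4). ASC-/- minus WT was 0.17 (95% interval -0.14 to 0.49), Casp1-/- minus WT 0.028 (-0.28 to 0.34) and ASC-/- minus Casp1-/- 0.15 (-0.19 to 0.48), with limma adjusted p of 1.00, 0.923 and 0.571.

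Lcn2 encodes lipocalin-2, which binds iron-carrying siderophores of bacteria. It was 8.79, 8.59 and 10.33 on the ASC-/- arrays, 9.38, 8.46 and 9.13 on the Casp1-/- arrays, and 8.58, 9.25, 8.67 and 8.18 on the WT arrays. ASC-/- replicate 3 alone stood above the others. ASC-/- minus WT was 0.57 (95% interval -0.38 to 1.52, limma, adjusted p = 1.00) and was 0.022 without that array. Casp1-/- minus WT was 0.32 (95% interval -0.63 to 1.27, limma, adjusted p = 0.670).

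Cp encodes ceruloplasmin, the copper-carrying ferroxidase of plasma. It was 7.87, 8.12 and 8.64 on the ASC-/- arrays, 8.37, 8.63 and 8.12 on the Casp1-/- arrays, and 8.38, 8.73, 8.05 and 7.78 on the WT arrays. The 3 groups overlapped, and the 3 differences lay between -0.17 and 0.14. A second Cp probe set was at background in every group, with means of 3.26, 3.27 and 3.32.

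Serpina3n encodes a secreted serine protease inhibitor related to human antichymotrypsin. It was 10.40, 11.01 and 11.43 on the ASC-/- arrays, 11.37, 11.47 and 11.10 on the Casp1-/- arrays, and 11.09, 11.23, 10.06 and 10.36 on the WT arrays. The Casp1-/- arrays lay close together and at the upper end, and they overlapped with WT replicate 2. Casp1-/- minus WT was 0.63 (95% interval -0.079 to 1.34, limma, adjusted p = 0.231). ASC-/- minus WT was 0.26 (95% interval -0.45 to 0.97) and ASC-/- minus Casp1-/- was -0.37 (95% interval -1.13 to 0.39), neither past the threshold.

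**Figure D2:**
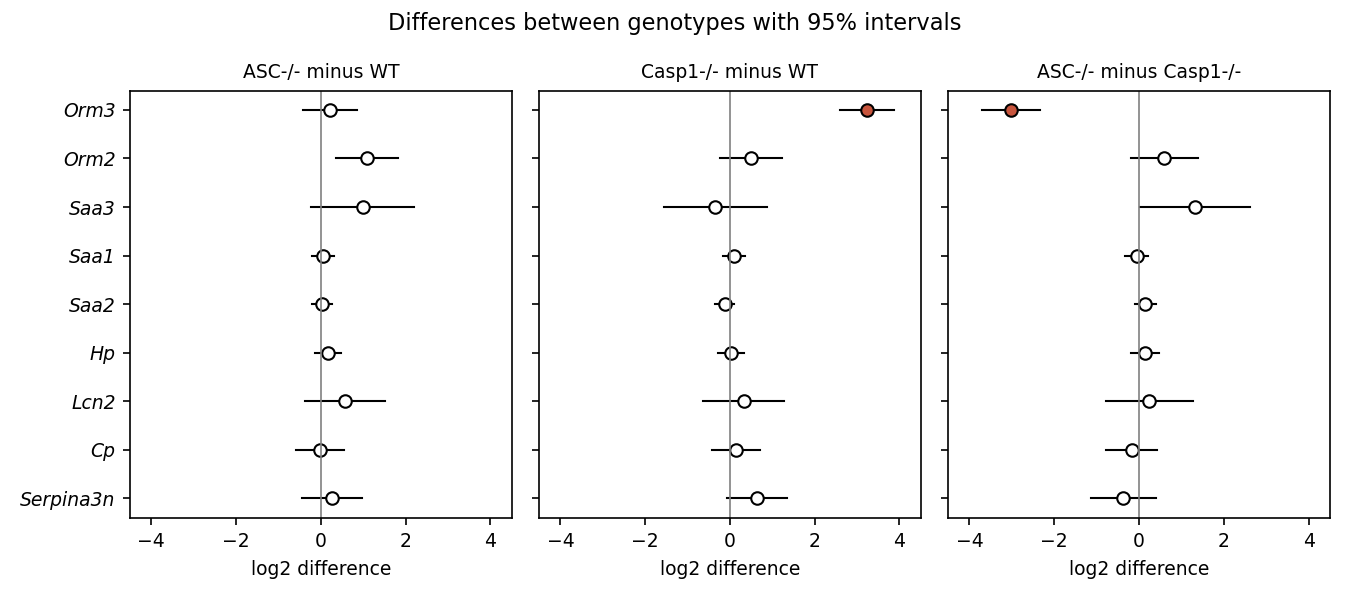
Fitted log2 differences of the 9 measured acute-phase genes in the 3 contrasts, with 95% intervals from limma. Filled points are past the threshold of an adjusted p of 0.05 over all 17097 genes, and only Orm3 is filled, at 3.23 in Casp1-/- minus WT and -3.02 in ASC-/- minus Casp1-/-.

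Counted together, none of the 9 measured genes passed the threshold in ASC-/- minus WT by limma, where 0.0351% of all genes did, and 1 of them, Orm2, had an unadjusted p under 0.05, against 2.00% of all genes. In Casp1-/- minus WT 1 of 9 was past the threshold, higher in Casp1-/-, against 8.17% of all genes in either direction and 4.31% higher. In ASC-/- minus Casp1-/- 1 of 9 was past it, lower in ASC-/-, against 7.39% of all genes in either direction and 3.54% lower. These counts are close to the share of all genes and give no result about the group as a whole. The group medians were 0.21, 0.14 and 0.15 in the 3 contrasts, against medians of 0.0050, 0.041 and -0.042 over all genes, and 8, 7 and 5 of the 9 differences were above 0. The groups did not overlap for none, 1 and 2 of the 9 genes, against 3.19%, 24.7% and 40.4% of all genes. The 2 null genotypes share their WT arrays, so the first pair of contrasts is not independent.

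The expressed acute-phase genes other than Hp varied widely between mice of 1 genotype. The median SD within genotypes was 0.16 over all genes. It was 0.82 for Saa3, 0.64 for Lcn2, 0.49 for Orm2, 0.47 for Serpina3n, 0.42 for Orm3, 0.37 for Cp and 0.19 for Hp, and 60.3% to 98.4% of all genes had a smaller one. That of Orm3 comes mostly from arrays at background, with an SD of 0.41 in ASC-/- and 0.40 in WT fat. In Casp1-/- fat, above background, the SD of Orm3 was 0.46. Saa1 and Saa2, at background, had 0.15 and 0.13.

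The same arrays tended to be high for several of these genes. The 6 genes looked at were Orm2, Saa3, Hp, Lcn2, Cp and Serpina3n, chosen after their values were seen. ASC-/- replicate 3 was the highest ASC-/- array for all 6, as it was for 32.3% of all genes, and the highest of all 10 arrays for 4 of them. WT replicates 1 and 2 both lay above replicates 3 and 4 for 5 of the 6, as they did for 27.4% of all genes. Lcn2 was the exception, with WT replicate 1 below replicate 3. Of 12 other acute-phase proteins above background on all arrays, 9 had their highest ASC-/- value on replicate 3 and 7 had WT replicates 1 and 2 above 3 and 4.

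The same WT arrays differed in cell markers and in controls. WT replicates 1 to 4 had macrophage marker means of 9.92, 10.33, 11.27 and 10.88, adipocyte marker means of 11.34, 11.35, 10.39 and 11.06, and actin 3' minus 5' values of 1.05, 0.91, 0.53 and 0.46. Replicates 1 and 2 were thus lower in the 18 macrophage markers, higher in the 11 adipocyte markers and higher in the actin measure than replicates 3 and 4. Of the ASC-/- arrays, replicate 3 was the lowest in macrophage markers (10.50) and the highest in adipocyte markers (11.17) and the actin measure (0.67). The part of these measures in the acute-phase values was not tested.

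**Figure D3:**
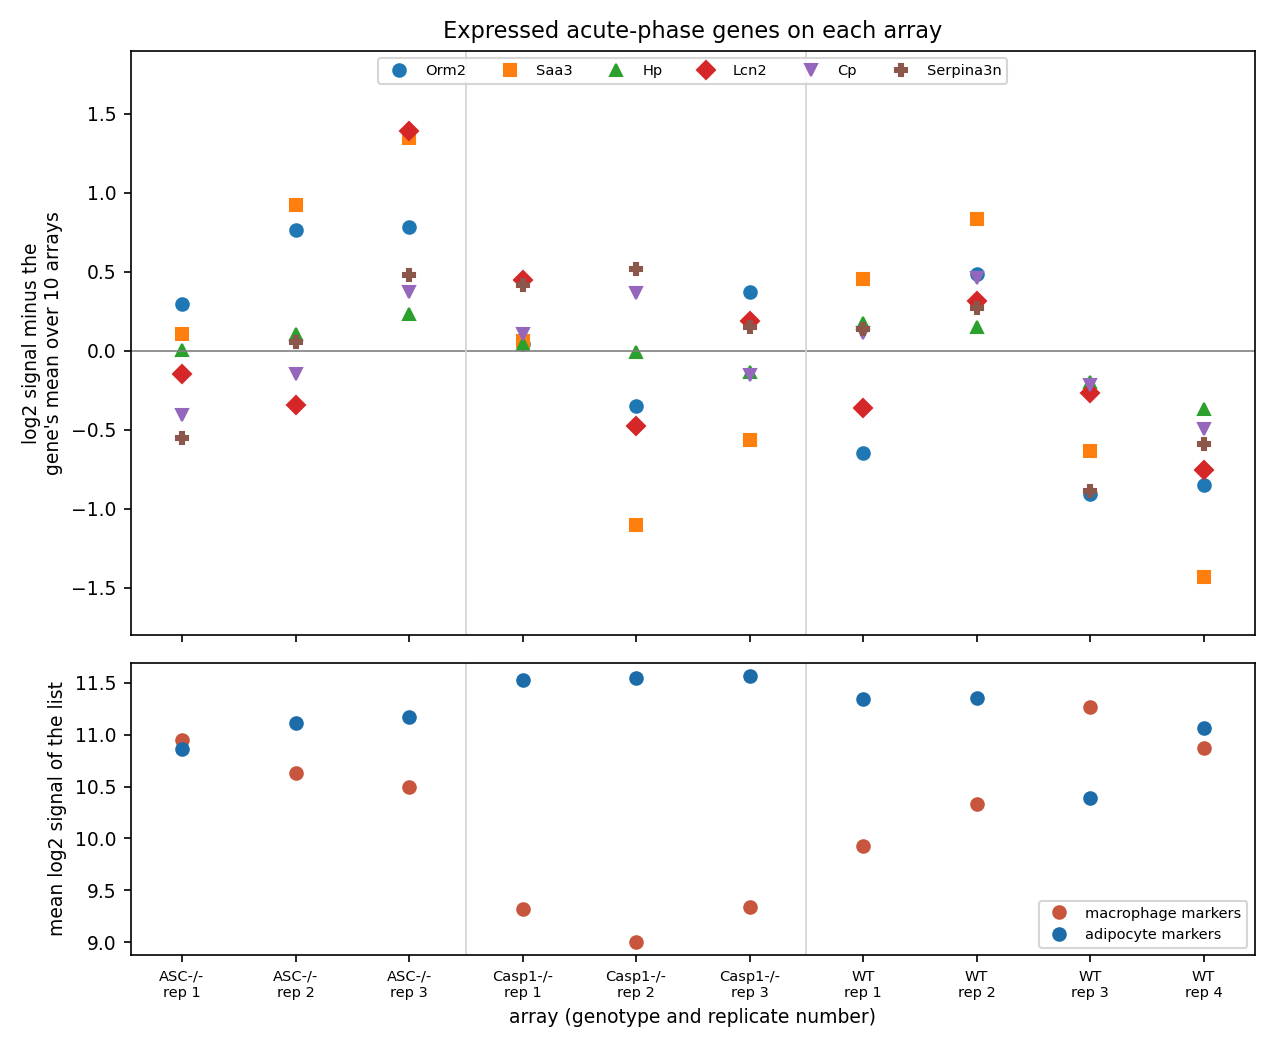
Upper panel: log2 signal of 6 acute-phase genes minus each gene's own mean over the 10 arrays, by array. Lower panel: mean log2 signal of 18 macrophage and 11 adipocyte markers on the same arrays, on an axis that does not start at 0. All 6 genes lie above 0 on ASC-/- replicate 3 and WT replicate 2, and all 6 lie below 0 on WT replicates 3 and 4.

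Markers of cell types were set beside the acute-phase genes. Hepatocyte markers (14) and neutrophil markers (14) had no gene past the threshold by limma in any contrast, and 9 of each list were below background on every array. At an unadjusted p under 0.05 there were 1 hepatocyte and 2 neutrophil markers in ASC-/- minus WT (2.00% of all genes), 1 and 1 in Casp1-/- minus WT (27.6%), and 2 and 3 in ASC-/- minus Casp1-/- (26.0%). The neutrophil markers averaged 4.34 to 4.52 on ASC-/- arrays, 4.32 to 4.80 on Casp1-/- arrays and 4.31 to 4.57 on WT arrays, and S100a9 was at background. S100a8, its partner in calprotectin, was 10.49 ± 0.52, 9.78 ± 0.43 and 9.74 ± 0.73 in ASC-/-, Casp1-/- and WT fat (SD, n = 3, 3 and 4). Ltf, another neutrophil marker, was 4.53, 8.65 and 3.79 on the Casp1-/- arrays, and its 8.65 lies in the highest neutrophil mean, 4.80. It was 3.94 to 4.33 on ASC-/- arrays and 4.13 to 7.32 on WT arrays. Mesothelial markers averaged 6.20 to 6.79, 6.61 to 8.08 and 6.26 to 7.14, and epididymis markers 3.54 to 3.62, 3.66 to 4.48 and 3.49 to 4.16, so that the means of both lists overlapped between Casp1-/- and WT arrays. The epididymis means did not overlap between ASC-/- and Casp1-/- arrays, and 6 of the 8 epididymis markers were below background on every array. Adam7 was 3.48, 8.31 and 5.17 on the Casp1-/- arrays, 3.53 to 3.77 on ASC-/- arrays and 3.43 to 6.20 on WT arrays. Aqp9, the other epididymis marker above background on some arrays, was 5.01, 5.60 and 4.46 on the Casp1-/- arrays. It was 4.31 to 5.67 on ASC-/- arrays and 4.06 to 7.69 on WT arrays, highest on WT replicate 1. Of the 12 mesothelial markers, 11 were above 0 in Casp1-/- minus WT (median 0.70) and all 12 were below 0 in ASC-/- minus Casp1-/- (median -0.86), with none past the threshold by limma and 2 in each contrast at an unadjusted p under 0.05. The part of the mesothelial and epididymis markers in the Orm3 value was not tested. Macrophage markers did move with the genotype in which Orm3 was high, with 13 of 18 lower in Casp1-/- than in WT (3.86% of all genes were lower). Of 11 adipocyte markers, 9 were above 0 in Casp1-/- minus WT (median 0.62), and the list mean was higher on every Casp1-/- array than on any WT array. Only 1 of the 11 was past the threshold, Pparg (difference 0.88, limma, adjusted p = 0.0234), where 4.31% of all genes were higher. Of 10 progenitor markers 1 was lower, Col1a1 (difference -1.07, limma, adjusted p = 0.0485). With the spike-in set as a block the limma adjusted p was 0.291 for Adgre1, 0.227 for Cd68, 0.207 for Pparg and 0.772 for Col1a1. The part of these markers in the Orm3 value was not tested.

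The wider acute-phase programme was followed in 25 further genes for acute-phase proteins. None was past the threshold in ASC-/- minus WT by limma (0.0351% of all genes were), and 2 of the 25 had an unadjusted p under 0.05 (2.00% of all genes). In Casp1-/- minus WT 2 were lower (3.86% of all genes were), Il1rn and Cd14, both higher in ASC-/- than in Casp1-/-. The medians of the 25 differences were 0.075, -0.030 and 0.053 in ASC-/- minus WT, Casp1-/- minus WT and ASC-/- minus Casp1-/-. Il1rn, whose product blocks the interleukin-1 receptor, was 9.08, 8.59 and 8.27 on the ASC-/- arrays, 6.35, 5.33 and 6.10 on the Casp1-/- arrays, and 7.45, 8.49, 9.28 and 8.96 on the WT arrays, with no overlap between Casp1-/- and the other arrays. Casp1-/- minus WT was -2.62 (limma, adjusted p = 0.0130), -1.53 with the spike-in set as a block (limma, adjusted p = 0.200) and -2.32 without Casp1-/- replicate 2 (limma, adjusted p = 0.0650).

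Cd14, the lipopolysaccharide co-receptor and a macrophage marker here too, averaged 9.61 ± 0.16 in ASC-/- fat, 8.05 ± 0.18 in Casp1-/- fat and 9.34 ± 0.76 in WT fat (SD, n = 3, 3 and 4). Casp1-/- minus WT was -1.29 (limma, adjusted p = 0.0497) and passed in 2 of the 10 fits without 1 array, those without WT replicate 1 or 2. The adipose acute-phase genes Lrg1, Lbp, Cfb, Steap4 and C4b were not past the threshold in any contrast. Lrg1, for instance, averaged 12.16 ± 0.31, 12.10 ± 0.18 and 11.90 ± 0.44 in ASC-/-, Casp1-/- and WT fat (SD, n = 3, 3 and 4). Steap4 was 11.61 to 11.70 on Casp1-/- arrays and 10.65 to 11.38 on WT arrays. Lbp was 11.831 to 12.054 and 10.978 to 11.805. These groups did not overlap for Steap4 and Lbp, as for 24.7% of all genes in either direction, and overlapped for Lrg1, Cfb and C4b. The liver proteins Crp, Apcs, Hamp, A2m and the fibrinogen chains Fga, Fgb and Fgg were at background on all arrays. Hpx, which encodes the haem carrier hemopexin, varied widely between mice, with 6.30, 5.74 and 8.30 on the ASC-/- arrays, 5.44, 4.86 and 5.02 on the Casp1-/- arrays, and 8.22, 7.49, 4.97 and 5.06 on the WT arrays, and was not past the threshold.

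The inducing cytokines, their receptors and their signalling genes (39 matched) gave 1 gene higher and 1 lower in Casp1-/- than in WT, where 4.31% of all genes were higher and 3.86% lower. None was past the threshold by limma in ASC-/- minus WT (0.0351% of all genes were), where 2 had an unadjusted p under 0.05 (2.00% of all genes) and Cebpb, Cebpd and Bcl3 had the smallest p. In ASC-/- minus Casp1-/- 3 were higher, Il1rap, Cebpb and Tnfrsf1b, and 1 was lower, Nr3c1, where 3.85% and 3.54% of all genes were. Tnfrsf1b differed by 1.26 (limma, adjusted p = 0.0459). Il6 was at background, at 3.35 ± 0.10 in ASC-/- fat, 3.40 ± 0.14 in Casp1-/- fat and 3.37 ± 0.03 in WT fat (SD, n = 3, 3 and 4), and so were Il1a and Il1b. Stat3 averaged 9.55, 9.56 and 9.47. Nr3c1, the glucocorticoid receptor, was higher in Casp1-/- than in WT by 0.38 (limma, adjusted p = 0.0382). Il1rap, the accessory chain of the interleukin-1 receptor, was lower in Casp1-/- by 0.68 (difference -0.68, limma, adjusted p = 0.0247), with a Casp1-/- mean of 4.69 within background against 5.37 in WT.

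Cebpb, which encodes a C/EBP factor, separated the null genotypes. It was 10.91, 11.16 and 11.24 on the ASC-/- arrays, 10.56, 10.55 and 10.62 on the Casp1-/- arrays, and 10.84, 10.92, 10.96 and 10.80 on the WT arrays. The Casp1-/- arrays lay below all others. ASC-/- minus Casp1-/- was 0.53 (limma, adjusted p = 0.0173), while neither null genotype differed from WT past the threshold. Cebpd was 9.35 ± 0.28, 8.71 ± 0.34 and 8.63 ± 0.58 in ASC-/-, Casp1-/- and WT fat (SD, n = 3, 3 and 4), and no contrast passed.

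Of 21 receptors and partners of the acute-phase proteins, none was past the threshold in ASC-/- minus WT by limma (0.0351% of all genes were), and 2 had an unadjusted p under 0.05 (2.00% of all genes). In Casp1-/- minus WT 1 was higher and 1 lower, where 4.31% and 3.86% of all genes were. In ASC-/- minus Casp1-/- 1 was higher and 3 were lower, where 3.85% and 3.54% of all genes were. Lrp1 was higher (difference 0.74, limma, adjusted p = 0.0423). Tfrc (difference -0.74, limma, adjusted p = 0.0314), Slc22a17 (-0.64, 0.0166) and Cd163 were lower. Slc22a17, the lipocalin-2 receptor, was 6.09 ± 0.14 in ASC-/- fat, 6.73 ± 0.16 in Casp1-/- fat and 6.24 ± 0.12 in WT fat (SD, n = 3, 3 and 4), and was higher in Casp1-/- than in WT by 0.49 (limma, adjusted p = 0.0296). Tlr2, a receptor at which serum amyloid A acts, was 7.45 ± 0.17, 6.50 ± 0.04 and 7.45 ± 0.55, and was lower in Casp1-/- than in WT (difference -0.95, limma, adjusted p = 0.0493). Cd163, the macrophage receptor for haptoglobin bound to haemoglobin, was lower in ASC-/- than in Casp1-/- (difference -1.18, limma, adjusted p = 0.0166), at 7.20 ± 0.26 against 8.39 ± 0.15 (SD, n = 3 each), with 7.80 ± 0.37 in WT (SD, n = 4). Cd163 thus ran against the macrophage markers, which were higher in ASC-/- than in Casp1-/- for 12 of 18 (3.85% of all genes were higher).

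Unlike Orm3, these list genes lost their calls under some settings. The blocked values of Casp1-/- minus WT set the Casp1-/- mean against WT replicate 1 alone. That array had the lowest macrophage marker mean of the WT arrays (9.92). The blocked values of ASC-/- minus Casp1-/- rest on it too. A shift between the array sets and a trait of that mouse cannot be told apart. With the spike-in set as a block, Casp1-/- minus WT was -0.51 for Cd14 (limma, adjusted p = 0.711), -0.41 for Tlr2 (0.692) and 0.32 for Slc22a17 (0.454), each smaller than without the block. It was -0.63 for Il1rap (limma, adjusted p = 0.300) and 0.51 for Nr3c1 (0.151), and ASC-/- minus Casp1-/- was 0.48 for Cebpb (0.424) and -0.98 for Cd163 (0.470), within 1.5 times of the values without the block. With the block ASC-/- minus Casp1-/- was 0.35 for Tnfrsf1b (limma, adjusted p = 0.899), 0.22 for Lrp1 (0.886) and -0.35 for Tfrc (0.795). Of the 10 fits without 1 array, 2 kept the call for Cd14, Nr3c1 and Tlr2, 4 for Slc22a17, 6 for Cebpb and Cd163 and 7 for Il1rap, which lost it without Casp1-/- replicate 2 or 3 or WT replicate 4. The highest adjusted p by limma in these fits was 0.151 for Cd14, 0.101 for Il1rap, 0.124 for Nr3c1, 0.100 for Slc22a17, 0.134 for Tlr2, 0.0752 for Cebpb and 0.0775 for Cd163. For ASC-/- minus Casp1-/-, 2 of the 10 fits kept the call for Tnfrsf1b and for Lrp1, and 4 for Tfrc. Their highest adjusted p by limma was 0.164, 0.157 and 0.117.

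**Figure D4:**
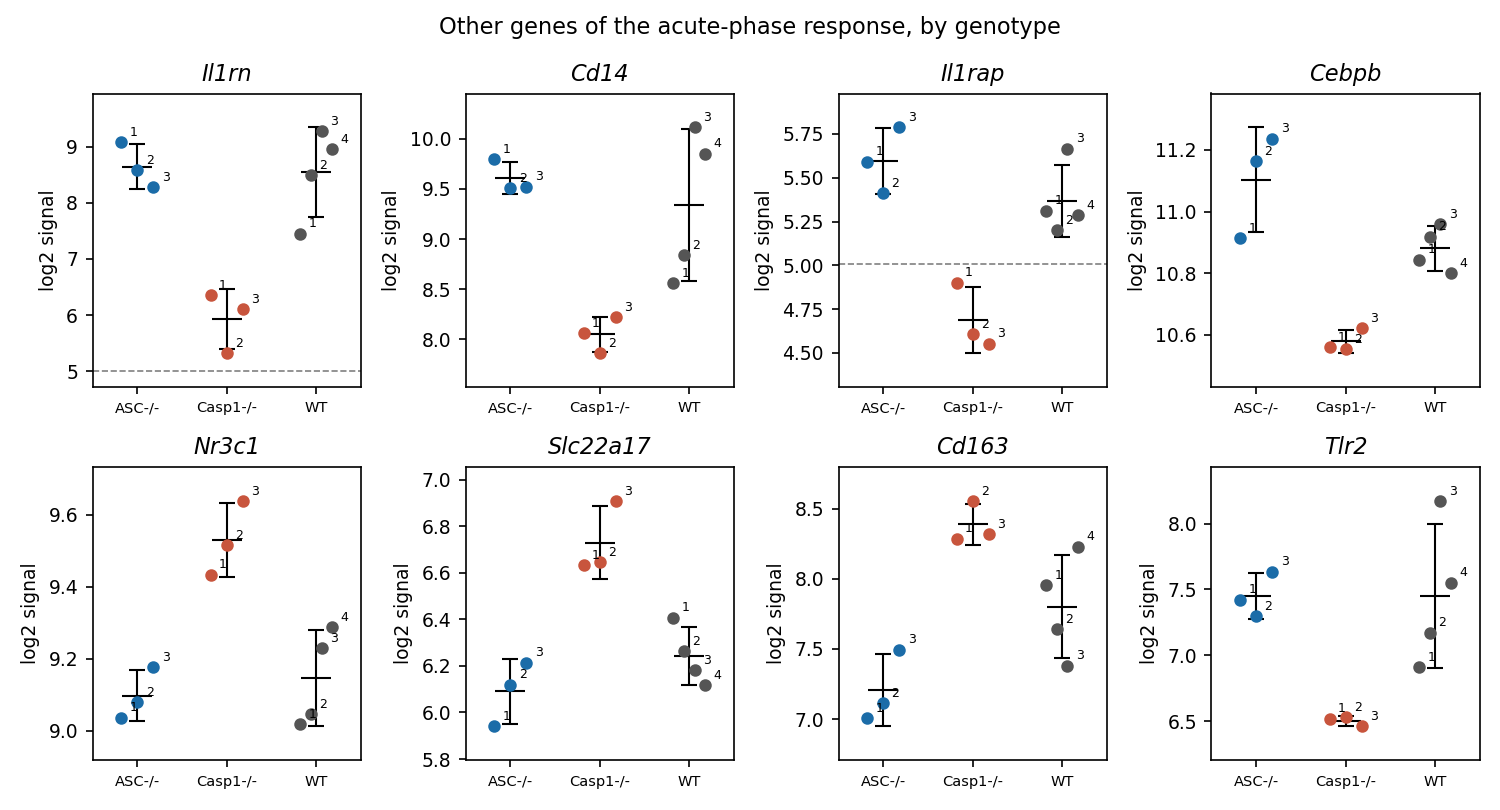
Log2 signal of 8 further genes of the acute-phase response on each array, by genotype. Points are single arrays with their replicate numbers, the bar and whiskers are the mean and SD, the dashed line is the highest single background value (5.01), and the axes do not start at 0. Il1rn, Cd14, Il1rap, Cebpb and Tlr2 are lowest in Casp1-/- fat, and Nr3c1, Slc22a17 and Cd163 are highest there.

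The genes most like each acute-phase gene over the 10 arrays, among 9659 or 9660 genes with a mean above background, were found by Pearson correlation and are given as a description. For Orm3 they were Cmklr1 (0.987), the receptor of the adipokine chemerin, Hoxc4 (0.987) and Mkrn2 (0.981). Cmklr1 averaged 8.52 in ASC-/- fat, 9.61 in Casp1-/- fat and 8.44 in WT fat. For Orm2 they were Ugt3a2 (0.983), Tmem167 (0.934) and S100a11 (0.900), and for Saa3 Micall2 (0.970), Nedd8 (0.937) and Tgm2 (0.933). For Hp they were S100a8 (0.955), Cck (0.936) and the acute-phase gene Lrg1 (0.931). For Lcn2 they were Cfi (0.955), Gipc2 (0.898) and Ccl19 (0.881), for Cp Sfrp1 (0.952), Anxa8 (0.924) and Timm17b (0.921), and for Serpina3n Slc2a10 (0.986), Insig1 (0.984) and Arhgap29 (0.980). Saa1 and Saa2 lay at background, so their nearest genes are not listed. The 10 arrays differ in genotype, spike-in set and cell markers together, which these correlations share.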

How the data were processed

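Epididymal fat of 10 mice was hybridised, 1 array per mouse, to the Affymetrix HT_MG-430 PM design, whose probes sit mostly toward the 3' end. The authors deposited log2 signals from RMA (version unnamed), per the submitters' processing notes. This method removes background, gives all arrays the same distribution and compresses low signals. For the genome build, the sources used here give none. No column was left out.

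The table held 45141 probe sets, of which 104 were controls, 15588 had no gene symbol, 551 had several and 28898 had 1. The probe set with the highest mean stood for a gene (17097 genes, no filter on dim genes). limma 3.58.1 in R 4.3.3 fitted 1 mean per genotype over all 10 arrays (7 residual and 2.43 prior degrees of freedom), two-sided, with Benjamini-Hochberg adjustment over all genes. An adjusted p under 0.05 is past the threshold. The number of arrays limits the precision. The script was tested on simulated data.

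The genes and lists were chosen with earlier results of these data known. Those named are the 10 genes, the targeted genes, up to 8 genes past the threshold per list and contrast (where under 3 passed, the 3 with the smallest p), the first markers of each cell type and the 3 genes most correlated with each acute-phase gene. C4b, Cfb, Hpx and the liver proteins were added after their values were seen. Not all genes allowed by the rule are printed. Promoter windows (RefSeq, GRCm38.p6) were searched on both strands and aligned with Biopython 1.88. Alternatives were other normalizations, filters, probe set choices, Bayes steps, array weights, samples, blocks and covariates, and leaving out each array.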

Additional observations from a re-analysis of the deposited data

Results flagged for a closer look

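Orm3 differed between the null genotypes by a test of the difference itself. ASC-/- minus Casp1-/- was -3.02 on the log2 scale (95% interval -3.70 to -2.34, limma, adjusted p = 0.00346), with all 3 ASC-/- arrays at background and all 3 Casp1-/- arrays above it. Against the same WT arrays Orm3 was 0.21 in ASC-/- (limma, adjusted p = 1.00) and 3.23 in Casp1-/- (limma, adjusted p = 0.00339). Among the 4 WT arrays no gene had an outlying array by Dixon's test at the 95% level, which sets the gap to the nearest array against the whole range. WT replicate 2 came closest to it for Orm2, with a gap of 0.813 of the range.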

How the results depend on the processing

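Orm3 was the acute-phase gene past the threshold in Casp1-/- minus WT and in ASC-/- minus Casp1-/- under all settings run, and none of the 9 passed in ASC-/- minus WT. The count in Casp1-/- minus WT was 1 to 2 without 1 array (2, with Orm2, without WT replicate 2), and in ASC-/- minus Casp1-/- it was 2, with Saa3, under the actin covariate. The differences that changed sign belong to results not past the threshold, and the cause was not tested. In ASC-/- minus WT, Saa2 was -0.042 with the mean over its probe sets, and Cp was 0.16 with array weights, 0.022 with the spike-in set as a block and within 1 set, and 0.14 with the actin covariate. In Casp1-/- minus WT, Saa3 was 0.071 with array weights. Hp was -0.074, -0.21 and -0.10, and Cp -0.012, -0.0040 and -0.032, with the replicate block, with the spike-in set (as a block or within it) and with the actin covariate. In ASC-/- minus Casp1-/-, Cp was 0.026 and 0.17 and Serpina3n 0.17 and 0.13 with the spike-in block and the actin covariate. Without 1 array, ASC-/- minus WT ranged from -0.018 to 0.41 for Orm3, -0.048 to 0.17 for Saa1, -0.052 to 0.11 for Saa2 and -0.24 to 0.15 for Cp. Casp1-/- minus WT ranged from -0.75 to 0.00034 for Saa3, -0.074 to 0.11 for Hp and -0.012 to 0.31 for Cp. ASC-/- minus Casp1-/- ranged from -0.15 to 0.069 for Saa1, -0.30 to 0.57 for Lcn2 and -0.38 to 0.0053 for Cp. Not every list gene past the threshold was followed through the settings. Of 31 calls followed, on the targeted genes and some list genes, 5 held with the spike-in block, all on Pycard, Casp1 or Casp4. Of the 31, 25 were lost without at least 1 array. Over all genes the calls in ASC-/- minus WT, Casp1-/- minus WT and ASC-/- minus Casp1-/- numbered 6, 1397 and 1264. They were 5, 2998 and 3428 with array weights, 3, 469 and 3248 with only the groups compared and 5, 120 and 63 with the spike-in block. Within 1 set they were 4 and 226, and ASC-/- minus Casp1-/- had no value there. The actin covariate left 231 in ASC-/- minus Casp1-/-. The replicate numbers did not pair the arrays, since deviations of same-numbered arrays correlated at -0.26 to 0.19. With the replicate block the calls were 3, 9 and 19, and Orm3 was 3.18 (limma, adjusted p = 0.0262) and -3.02 (limma, adjusted p = 0.0180). Leaving out the dimmest genes removed Saa1 and Saa2. Differences within background, as for Saa1 and Saa2, were not detectable here.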
